A study of Arabidopsis thaliana with 8 samples.

Results

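The response of *idd4* seedlings to NaCl was described across 19365 of the 27207 genes of the deposited table. Each of these averaged 10 or more over the 4 *idd4* libraries in the values as deposited, before the further scaling used here. The rule used the average level and not the change, though a gene absent from either treatment entered only if it was high in the other. The genes nearest that limit were AT5G09380, AT3G23260 and AT1G30160 with means of 10.006, 10.007 and 10.016, and outside it AT5G50175, AT4G34419 and AT4G35180 with 9.999, 9.995 and 9.991. Messenger RNA of whole Arabidopsis thaliana seedlings was sequenced, 14 days old by the labels, that had spent 5 days on 1/2 MS medium before the move to 1/2 MS with or without 100 mM NaCl. The groups were *idd4* with NaCl (2 libraries), *idd4* without NaCl (mock, 2 libraries), WT with NaCl (2 libraries) and WT mock (2 libraries), all in the Col-0 background. The *idd4* line is a single T-DNA insertion line in *IDD4*, which encodes a zinc finger transcription factor of the INDETERMINATE DOMAIN family. The study speaks of more biological replicates for its RNA sequencing than the 2 libraries per group held in the series. It does not speak of separate sowings, so the p-values measure the spread between these libraries, part of which may be technical.

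Salt limits a seedling in several ways. Sodium and chloride in the medium lower the water potential, and sodium that enters the shoot competes with potassium and harms leaf metabolism. Plants answer through the hormone abscisic acid (ABA), by making compatible solutes such as proline, by moving sodium out of the cytosol, and over days by slower growth, less photosynthesis and often the red anthocyanin pigments. In such whole seedlings fewer cells of a type and less RNA per cell cannot be told apart.

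*IDD4* itself (AT2G02080, chr2:518079-521737 in TAIR10.1) was read first, as a check of the labels. It had 529 and 521 scaled fragments in the *idd4* NaCl libraries 1 and 2, against 500.1 and 504 in *idd4* mock. The WT libraries had 367 and 389.7 with NaCl and 280.1 and 396 without. The transcript was therefore not lower in the libraries labelled *idd4*, and a count over the whole gene does not tell an interrupted transcript from an intact one. Its difference between NaCl and mock in the libraries labelled *idd4* was 0.06 ± 0.20 (log2 ± SE, adjusted p = 0.91). Wherever *idd4* is written here, it means the libraries so labelled.

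The libraries held 5882615 and 13557480 fragments in *idd4* NaCl 1 and 2, against 10986542 and 13199512 in *idd4* mock 1 and 2, so NaCl 1 was the shallowest. All 8 had been brought to totals between 10516146 and 10564612 by the authors, and here a further factor per library put the median gene at the same level. Without that factor the median gene lay 0.25 higher on the log2 scale with NaCl, and all differences are given relative to the median gene. The levels are scaled fragments, not divided by transcript length, and serve to compare a gene between libraries. Over all 19365 genes the *idd4* NaCl libraries correlated at r = 0.949 and the mock libraries at r = 0.971 on the log2 scale, against 0.903 to 0.946 between a NaCl and a mock library. NaCl 1 and NaCl 2 lay more than 2-fold apart in 9.33% of the genes, against 5.17% for the mock libraries.

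Between NaCl and mock, 226 genes rose and 319 fell in *idd4* at an adjusted p under 0.05 (limma on the 8 libraries, Benjamini-Hochberg over all genes). These were 1.17% and 1.65% of the genes tested, or 2.81% in either direction. An unadjusted p under 0.05 was reached by 3454 genes (17.8%). Both NaCl libraries lay above both mock libraries in 4555 genes (23.5%) and below both in 4562 (23.6%). Of the genes that rose, 202 differed by at least 2-fold and 55 by at least 8-fold, with a median of 1.81 on the log2 scale. Of those that fell, 281 reached 2-fold and 30 reached 8-fold, with a median of -1.44. The smallest changes that passed were 0.82 and -0.80, against a quartile range of -0.29 to 0.27 over all genes. Of the 545 calls, 41.5% were upwards. With no scaling to the median gene that share was 70.8%, from 441 genes higher and 182 lower, so the split between directions rests on the scaling.

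**Figure D1:**
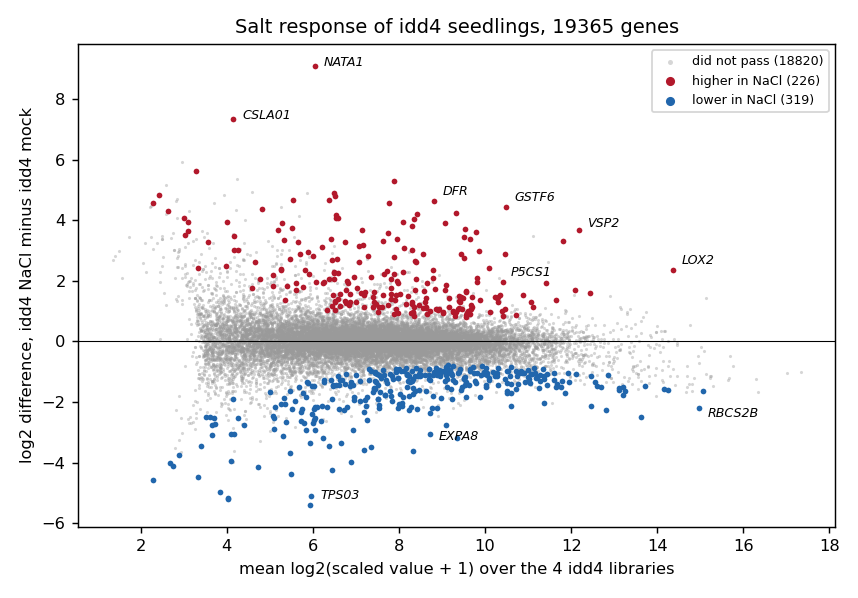
Difference between NaCl and mock in *idd4* for each of the 19365 genes (vertical axis, log2) against the mean of log2(scaled fragments + 1) over the 4 *idd4* libraries (horizontal axis). Coloured points are the 226 genes that rose and the 319 that fell, and the cloud of the other genes is centred on 0.

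The number of calls depended on single libraries. With NaCl 1 left out 43 genes rose and 62 fell, of which 42 and 55 were among those reported. With NaCl 2 left out 282 rose and 504 fell, with 160 and 234 among those reported. Without mock 1 the counts were 41 and 42, without mock 2 39 and 28, without WT mock 1 108 and 115, and without WT mock 2 105 and 114. The WT libraries enter through the shared estimate of the spread. Leaving out either WT NaCl library changed the counts little, though some of the genes that passed differed. Of the 116 genes chosen by rule to be named, 74 passed, and 13 of these passed without each of the 8 libraries in turn. They were *CSLA01*, *DFR*, *UF3GT*, *TT19*, *LDOX*, *MYB75*, *P5CS1*, *MEE3*, *TPS03*, *GSTF6*, *PR5*, *EXPA8* and *AOC1*.

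The late part of anthocyanin synthesis was the one list of which every member rose. All 11 genes for its enzymes and transport passed, against 1.17% of all genes, with a median difference of 2.89 beside 0.01 over all genes. *DFR* (AT5G42800, chr5:17164093-17166032), which encodes the reductase that opens the anthocyanin branch, had 1589 and 3149.5 scaled fragments in the 2 NaCl libraries, against 61.4 and 127 in mock. Both NaCl libraries were more than 10-fold above both mock libraries, and NaCl 2 was the higher. The difference was 4.65 ± 0.49 (adjusted p = 0.005). *LDOX*, the next enzyme of the branch, had 2106 and 3600.3 against 116 and 185 (4.22 ± 0.38, adjusted p = 0.0026). *UF3GT*, which adds a xylose to anthocyanins, had 1205 and 1776 against 49.3 and 124 (4.21 ± 0.41, adjusted p = 0.0035). In neither gene did NaCl and mock overlap. *TT19*, a glutathione S-transferase that carries anthocyanins to the vacuole, rose by 3.80, and the malonyltransferase *5MAT* rose by 3.31. *UGT75C1*, *3AT1*, *3AT2*, *SCPL10*, *TT7* and *BGLU10*, which hydroxylate the flavonoid ring or decorate the pigment with sugars and acyl groups, rose by 2.89, 2.78, 2.28, 2.00, 1.63 and 1.52. NaCl 2 was above NaCl 1 in 9 of the 11 genes, the median of the list against the mock mean being 2.57 in NaCl 1 and 3.22 in NaCl 2. Without NaCl 1, NaCl 2, mock 1 and mock 2 in turn, 10, 11, 7 and 8 of the 11 passed.

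**Figure D2:**
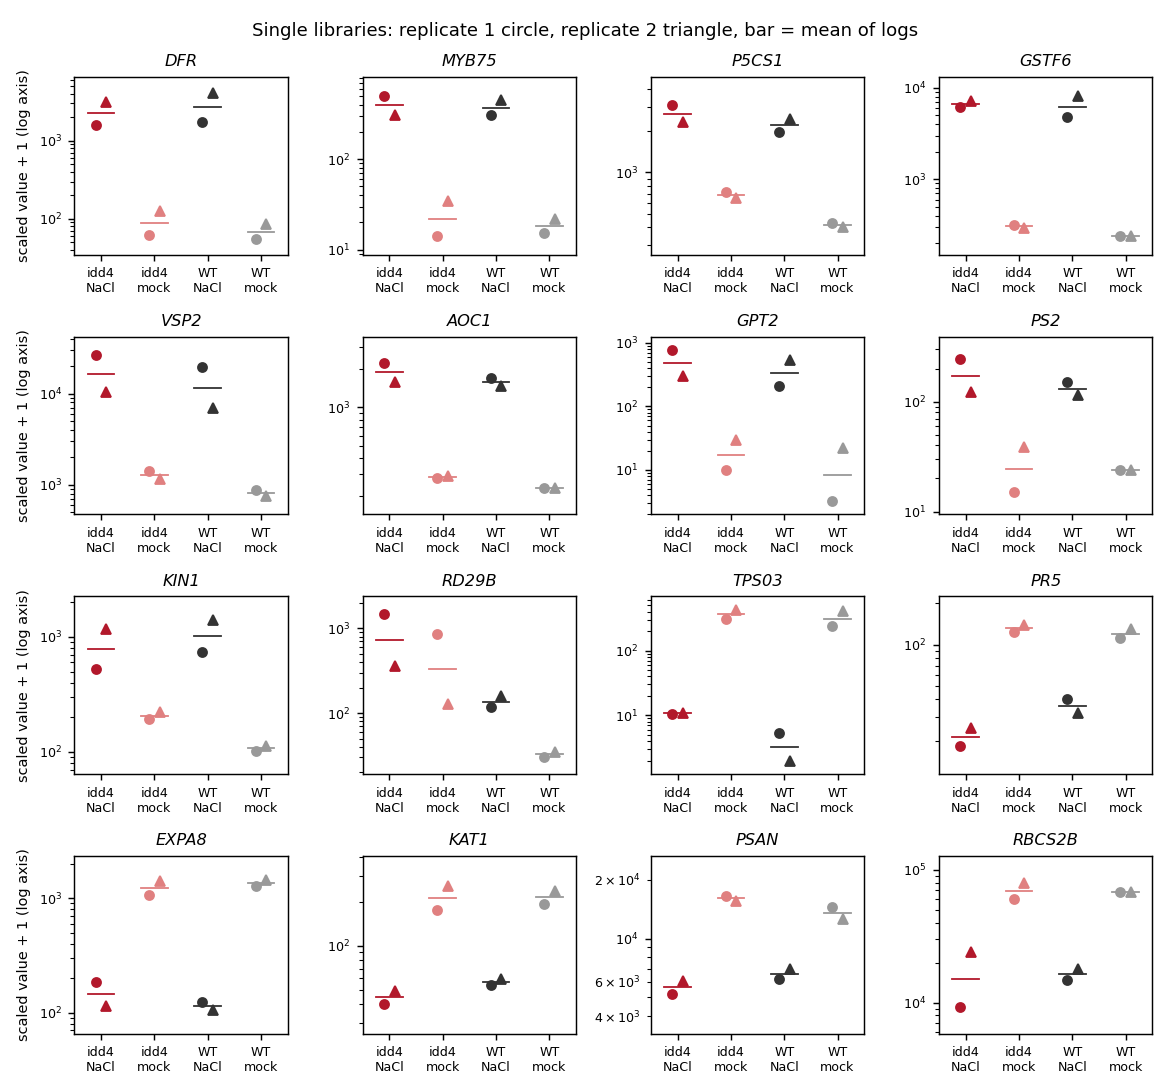
Scaled fragments + 1 (log axes, 1 range per panel) of 16 genes in the *idd4* NaCl, *idd4* mock, WT NaCl and WT mock libraries, with replicate 1 as a circle, replicate 2 as a triangle and a bar at the mean of their logs. In *idd4*, *DFR* has 1589 and 3149.5 with NaCl against 61.4 and 127 in mock, and *RBCS2B* has 9321 and 23909.8 against 60067 and 79059.

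The early phenylpropanoid and flavonoid enzymes differed less. The lists do not follow the order of the pathway strictly, as *TT7* counts as late here and *UGT78D2* as early. Of the 11 enzymes on the early list 1 rose, beside 1.17% of all genes, with a median of 0.18. It was *UGT78D2*, a flavonoid 3-O-glucosyltransferase, which had 1703 and 1986 in NaCl against 973 and 1065 in mock (0.85, adjusted p = 0.041) and did not pass without any one of the 4 *idd4* libraries. *CHS*, chalcone synthase, had 10824 and 13008 in NaCl against 9094 and 7637 in mock, and did not pass (0.51, adjusted p = 0.37). Of 15 regulators 3 rose, beside 1.17% of all genes. *MYB75*, an R2R3-MYB activator of anthocyanin synthesis also known as PAP1 (chr1:21233555-21235292), had 505 and 307 in NaCl against 13.1 and 33.3 in mock (4.17 ± 0.45, adjusted p = 0.005). *TT8*, its basic helix-loop-helix partner, had 116 and 146 against 7.04 and 12.0 (3.68 ± 0.60, adjusted p = 0.021). For both genes every NaCl library was far above every mock library. *MYB90*, the close relative of *MYB75*, had 42.5 and 16.1 against 0 and 0.92 (4.30 ± 0.88, adjusted p = 0.042) and rests on few fragments. The median over the 15 was -0.14, and it was 0.10 with no scaling, 0.20 without NaCl 1 and 0.04 without mock 1. Of the 15, 1 passed without NaCl 1, 2 without NaCl 2, 1 without mock 1 and 1 without mock 2.

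Because the late enzymes moved together, the 250 bases before the annotated start were read for the genes tested (RefSeq, TAIR10.1, 19258 windows). The G-box, CACGTG on either strand, is bound by basic helix-loop-helix and bZIP factors. It stood in 3 of the 11 late anthocyanin windows, in 11.5% of the windows of the 226 genes that rose, in 7.84% of those of the 319 that fell and in 7.36% of all. Of the 3 late anthocyanin windows, that of *SCPL10* overlaps an annotated exon and is not printed. The other 2 are printed with the G-box in capitals. That of *DFR* is on the minus strand at chr5:17166033-17166282 with 1 match, and that of *UF3GT* on the minus strand at chr5:21938397-21938646 with 2.
DFR: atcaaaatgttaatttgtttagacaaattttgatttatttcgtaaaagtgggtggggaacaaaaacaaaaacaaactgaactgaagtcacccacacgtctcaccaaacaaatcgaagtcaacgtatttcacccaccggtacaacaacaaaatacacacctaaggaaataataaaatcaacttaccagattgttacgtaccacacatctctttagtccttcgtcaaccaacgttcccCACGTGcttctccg
UF3GT: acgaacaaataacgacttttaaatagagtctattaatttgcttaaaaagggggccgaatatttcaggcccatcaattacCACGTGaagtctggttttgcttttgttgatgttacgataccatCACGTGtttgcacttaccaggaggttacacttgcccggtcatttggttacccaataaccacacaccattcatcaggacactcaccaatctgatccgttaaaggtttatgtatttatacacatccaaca
The match in the *DFR* window begins 14 bases before the annotated start, and those of *UF3GT* 171 and 128 bases before it. The G-box contains the core ACGTG of the ABA response element on both strands, so these counts overlap. A match is a description of the letters and not of binding.

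ABA and dehydration output rose in a few genes. Of 26 such genes 4 rose and 0 fell, beside 1.17% and 1.65% of all genes, with a median of 0.97. Both NaCl libraries lay above both mock libraries in 12 of the 26, beside 23.5% of all genes. *KIN1* (chr5:5209717-5210826), a small hydrophilic cold- and ABA-responsive protein, had 529 and 1168 in NaCl against 191 and 223 in mock (1.92 ± 0.39, adjusted p = 0.04). *LTP3* and *LTP4*, neighbouring genes for lipid transfer proteins, had 2614 and 2568 against 624 and 171 (2.98 ± 0.58, adjusted p = 0.037) and 2154 and 807 against 185 and 34.2 (4.03 ± 0.80, adjusted p = 0.04). *HB7*, a homeodomain-leucine zipper factor of the drought response that the study names, had 2719 and 1839 against 938 and 628 (1.54 ± 0.32, adjusted p = 0.043). In these 4 genes the NaCl libraries were all above the mock libraries, and mock 1 was above mock 2 in *LTP3*, *LTP4* and *HB7*. *KIN1* has a near-identical neighbouring gene, and *LTP3* and *LTP4* resemble each other. How shared reads were counted is not stated, so levels within such pairs are uncertain. Without NaCl 1 1 gene of the list rose, without NaCl 2 4 rose and 1 fell, without mock 1 2 rose and without mock 2 0.

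Several classical markers of the ABA response did not pass. *RD29B* had 1486 and 359.6 in NaCl against 868 and 128 in mock (1.13, adjusted p = 0.56), and the dehydrin gene AT5G66400 had 3936 and 2006 against 4216 and 697 (0.71, adjusted p = 0.71). In both genes mock 1 was above NaCl 2, so the treatments overlapped. *RD20*, a calcium-binding caleosin, had 849.8 and 181 against 126 and 26.8 (2.73, adjusted p = 0.12). Across the 26 genes replicate 1 was above replicate 2 in 18 with NaCl and in 20 in mock, against 5 and 10 in the WT NaCl and WT mock libraries. The core ACGTG stood in 14 of the 26 windows of this list, in 34.1% of those of the genes that rose, in 27.6% of those that fell and in 24.0% of all. It was not particular to this list, with 17 of 29 jasmonate and 12 of 34 photosystem windows. Of the late anthocyanin windows 3 of 11 held it, and of the phosphate starvation windows 5 of 19. The *KIN1* window, on the plus strand at chr5:5209467-5209716, is shown with this core in capitals, 1 match read from the other strand 150 bases before the start.
KIN1: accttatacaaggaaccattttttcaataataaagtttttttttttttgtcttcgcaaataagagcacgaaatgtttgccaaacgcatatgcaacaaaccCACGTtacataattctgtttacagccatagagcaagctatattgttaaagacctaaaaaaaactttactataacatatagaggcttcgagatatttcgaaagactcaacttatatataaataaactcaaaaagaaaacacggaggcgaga
Among 26 genes of ABA synthesis, perception and core signalling 1 fell and 0 rose, beside 1.65% and 1.17% of all genes. It was *PYL6*, an ABA receptor, with 121 and 88.9 in NaCl against 323 and 346 in mock (-1.68 ± 0.29, adjusted p = 0.025). *PYL6* did not pass without any one of the 4 *idd4* libraries, and without NaCl 2 another gene of the list rose.

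For proline, the compatible solute, 1 of 9 genes rose, beside 1.17% of all genes. *P5CS1* (chr2:16598072-16603319), the stress-responsive enzyme of the rate-limiting step, had 3066 and 2323 in NaCl against 723 and 654 in mock. Both NaCl libraries were more than 3-fold above either mock library (1.95 ± 0.20, adjusted p = 0.0042). Its paralogue *P5CS2* had 678 and 449 against 220.4 and 241, and did not pass (1.25, adjusted p = 0.07). The median of the list was 0.51.

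Of 19 genes for sodium, potassium and proton transport 3 fell and 0 rose, beside 1.65% of all genes. *KAT1* (chr5:18743510-18747406), a potassium inward channel of guard cells, had 39.3 and 48.3 in NaCl against 174 and 253 in mock (-2.24 ± 0.26, adjusted p = 0.006). *CHX17*, a cation/proton exchanger of roots, had 131 and 92.0 against 313 and 237 (-1.30 ± 0.24, adjusted p = 0.032). The anion channel homologue *SLAH1*, expressed in roots, had 0 and 3.07 against 23.1 and 29.6 (-3.75 ± 0.81, adjusted p = 0.048). All 3 were lower in both NaCl libraries than in either mock library. The genes best known for handling sodium did not pass. *SOS1*, the sodium/proton antiporter of the plasma membrane, had 259.7 and 199 in NaCl against 174 and 134 in mock (0.57, adjusted p = 0.29). *NHX1*, its vacuolar counterpart, had 459.5 and 392 against 521 and 476, and *HKT1*, which retrieves sodium from the xylem, had 26.8 and 8.43 against 15.1 and 6.47. The median of the list, -0.02, was 0.21 with no scaling, 0.02 after quantile normalization, 0.01 with DESeq2, 0.10 without NaCl 2 and 0.01 without mock 1. Without NaCl 1, NaCl 2, mock 1 and mock 2 in turn, 1, 2, 1 and 0 of the 19 fell. Of 13 plasma membrane and 6 tonoplast aquaporins, which conduct water, 0 passed, beside 2.81% of all genes in either direction. The difference was below 0 for all 6 tonoplast genes, with a median of -0.71, and *TIP1;1* had 4891 and 3113 against 9144 and 4518 (-0.72, adjusted p = 0.45).

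Jasmonate is a hormone of wounding and defence. Of 29 genes of its synthesis, repressors and output 4 rose and 0 fell, beside 1.17% and 1.65% of all genes, 27 had a difference above 0, and the median was 1.06. *LOX2* (chr3:16525245-16529352), the plastid lipoxygenase of jasmonate synthesis, had 49452 and 46539 in NaCl against 7779.6 and 11239.8 in mock (2.36 ± 0.34, adjusted p = 0.014). *AOC1* and *AOC2*, allene oxide cyclases of the same pathway, had 2244 and 1595 against 278 and 287 (2.74 ± 0.20, adjusted p = 0.001) and 9542 and 9648 against 3304 and 3089 (1.59 ± 0.20, adjusted p = 0.0072). In these synthesis genes the NaCl libraries lay much nearer to each other than to mock. The output gene *VSP2* (chr5:8500468-8502224), for a vegetative storage protein, had 26201 and 10451 against 1419 and 1173 (3.68 ± 0.51, adjusted p = 0.012). *AOC1* and *AOC2* are near-identical neighbours, as are *VSP1* and *VSP2*, so the division of reads within each pair is uncertain.

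In other output genes the NaCl libraries parted. *TAT3*, a tyrosine aminotransferase, had 702 and 19.9 in NaCl against 2.01 and 1.85 in mock (5.37, adjusted p = 0.087), and the repressor gene *JAZ10* had 301 and 10.7 against 13.1 and 3.70 (2.87, adjusted p = 0.42). *VSP1* had 18290.0 and 3005 against 726 and 618 (3.47, adjusted p = 0.12). NaCl 1 was above NaCl 2 in 26 of the 29 genes. Replicate 1 was above replicate 2 in 13 of the 29 in *idd4* mock and in 27 of the 29 in WT with NaCl. The list took 1.43% and 0.84% of all scaled fragments in the NaCl libraries 1 and 2, against 0.22% and 0.24% in mock. Without NaCl 1 3 genes of the list rose, without NaCl 2 8, and without mock 1 or mock 2 1.

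Among 6 genes of terpene and green leaf volatile synthesis 1 fell, beside 1.65% of all genes. *TPS03* (chr4:9407611-9411140), a terpene synthase, had 9.44 and 9.97 in NaCl against 311 and 426 in mock (-5.09 ± 0.49, adjusted p = 0.0035). Without NaCl 2 2 further genes of this list rose. Of 24 glucosinolate genes 2 rose, beside 1.17% of all genes, with a median of 0.31. *MAM1*, which elongates methionine for aliphatic glucosinolates, had 3129 and 3386 against 1298 and 1717 (1.12, adjusted p = 0.027), and *FMOGS-OX3*, which oxygenates their side chains, had 834 and 859 against 449.8 and 489 (0.85, adjusted p = 0.036). Neither passed without any one of the 4 *idd4* libraries. Of 15 salicylate and immunity genes 2 fell, beside 1.65% of all genes. *PR5* (chr1:28177670-28179022), a thaumatin-like protein induced by salicylate, had 17.3 and 23.8 in NaCl against 123 and 139.6 in mock (-2.63 ± 0.28, adjusted p = 0.005), and the transcription factor gene *WRKY70* had 286 and 143 against 686 and 1258 (-2.19, adjusted p = 0.039). The median of this list, -0.19, was 0.05 with no scaling. Without NaCl 1 1 gene fell, without NaCl 2 1 fell and 2 rose, and without mock 1 or mock 2 1 fell. *PR2*, a glucanase of the same response, went the other way in value with 297 and 31.4 against 9.06 and 11.1, and it did not pass (3.16, adjusted p = 0.085).

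Photosynthesis genes had differences below 0 throughout, though few passed. This held for all 34 nuclear photosystem and light-harvesting genes. Of these 4 fell, beside 1.65% of all genes, and 30 were lower in both NaCl libraries than in either mock library, beside 23.6% of all genes. The median was -1.20, beside 0.01 over all genes, and the smallest difference was -0.31, of *PSBS*. *PSAN*, a subunit of photosystem I, had 5203 and 6054 in NaCl against 16516 and 15595 in mock (-1.52 ± 0.23, adjusted p = 0.017). *PSAF*, *PSBQA* and *ATPD*, for a photosystem I subunit, a protein of the oxygen-evolving complex and a subunit of the chloroplast ATP synthase, fell by 1.63, 1.51 and 1.48. In each of the 34 genes NaCl 1 was below NaCl 2. Replicate 1 was above replicate 2 in 4 of the 34 in *idd4* mock, in 2 in WT NaCl and in 13 in WT mock. Together the 34 genes took 4.51% and 7.04% of all scaled fragments in the NaCl libraries, against 10.3% and 11.8% in mock. Each NaCl library was below both mock libraries, NaCl 1 by more than NaCl 2. Without NaCl 2 25 of the 34 fell, and without NaCl 1, mock 1 or mock 2 0 did. DESeq2 on the fragments called 28.

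Carbon fixation behaved likewise. All 15 genes for Rubisco small subunits and the Calvin cycle had a difference below 0, with a median of -1.15. Of these 1 fell, beside 1.65% of all genes. It was *RBCS2B* (chr5:15380907-15382071), a Rubisco small subunit, with 9321 and 23909.8 in NaCl against 60067 and 79059 in mock (-2.21 ± 0.47, adjusted p = 0.045). Both NaCl libraries were below mock, NaCl 1 the lower by more than 2-fold. The gene lies in a cluster of near-identical copies, between which reads may have been divided. The list took 2.08% and 4.25% of all scaled fragments in NaCl, against 5.04% and 7.06% in mock. Replicate 1 was above replicate 2 in 0 of the 15 with NaCl and in 1 in mock, against 1 in WT NaCl and 5 in WT mock. Of 14 genes of chlorophyll synthesis 2 fell, beside 1.65% of all genes. They were *GSA2* with 960.0 and 1583 in NaCl against 3049 and 3159 in mock (-1.33, adjusted p = 0.032) and *CHLM* with 1637 and 2263 against 3704 and 4443 (-1.08, adjusted p = 0.038). They encode an early enzyme of tetrapyrrole synthesis and the magnesium protoporphyrin methyltransferase. Without NaCl 2 8 Calvin cycle and 5 chlorophyll genes fell, and without NaCl 1, mock 1 or mock 2 0 of either. Of 85 genes of the plastid genome 44 were tested and 0 passed, beside 2.81% of all genes in either direction, with a median of 0.16. These 44 together took only 0.054% and 0.043% of all scaled fragments in NaCl, against 0.034% and 0.038% in mock. In 20.7% of the windows of the genes that fell stood an I-box, GATAAG on either strand, a motif known from light-regulated genes, against 14.6% for the genes that rose and 12.3% for all. It stood in 9 of the 34 photosystem windows. The *RBCS2B* window, on the minus strand at chr5:15382072-15382321, is printed for its 3 I-boxes and 1 G-box, in capitals.
RBCS2B: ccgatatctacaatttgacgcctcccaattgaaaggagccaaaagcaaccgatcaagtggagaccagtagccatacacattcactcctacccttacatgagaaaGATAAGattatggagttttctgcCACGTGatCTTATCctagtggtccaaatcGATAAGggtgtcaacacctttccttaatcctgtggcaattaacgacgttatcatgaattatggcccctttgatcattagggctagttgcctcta

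Of 13 genes of starch and sucrose metabolism 4 rose and 0 fell, beside 1.17% and 1.65% of all genes, with a median of 1.37. Of the 13, 11 had a difference above 0 and 2 below it, *SEX1* (-0.48, adjusted p = 0.39), a starch-phosphorylating dikinase, and *RS5* (-0.15, adjusted p = 0.74), a raffinose synthase. *GBSS1* (chr1:11920390-11923866), the granule-bound starch synthase, had 406 and 615 in NaCl against 23.1 and 63.8 in mock (3.66, adjusted p = 0.018). *APL3* and *APL4*, large subunits of ADP-glucose pyrophosphorylase, had 489 and 328 against 52.3 and 37.9 (3.14, adjusted p = 0.015) and 153 and 127 against 14.1 and 23.1 (2.88, adjusted p = 0.027). *GPT2*, a glucose 6-phosphate translocator of plastids, had 779 and 299.8 against 9.06 and 28.7 (4.81 ± 0.92, adjusted p = 0.034). Both NaCl libraries lay well above mock in all 4. Among 19 genes of senescence and starvation 2 rose, beside 1.17% of all genes, with a median of 0.92. They were *ASN1*, the dark-inducible asparagine synthetase, with 623 and 1318 against 88.6 and 137 (3.03, adjusted p = 0.031), and *DIN2*, a beta-glucosidase of sugar starvation, with 146 and 228 against 43.3 and 42.5 (2.06, adjusted p = 0.034). *SAG13*, an early senescence marker, had 599.6 and 75.9 against 11.1 and 11.1 (4.15, adjusted p = 0.054). Without NaCl 2 5 starch genes rose, without mock 2 1, and without NaCl 1 or mock 1 0. Neither *ASN1* nor *DIN2* passed without any one of the 4 *idd4* libraries, and without NaCl 2 2 other genes of their list rose.

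Of 19 phosphate starvation genes 4 rose and 0 fell, beside 1.17% and 1.65% of all genes. All 19 had a difference above 0, with a median of 1.11, and 16 lay higher in both NaCl libraries than in either mock library, beside 23.5% of all genes. *PHT1;4* (chr2:16257157-16260253), a high-affinity phosphate transporter, had 411 and 363 in NaCl against 129 and 129 in mock (1.57 ± 0.21, adjusted p = 0.0095). *PS2*, a phosphatase strongly induced without phosphate, had 242 and 120.4 against 14.1 and 37.9 (2.83 ± 0.48, adjusted p = 0.024). *IPS1*, a non-coding RNA that sequesters miR399, had 55.1 and 15.3 against 2.01 and 0.92 (3.65, adjusted p = 0.049), and the acid phosphatase gene *PAP17* had 664 and 374 against 229 and 175 (1.31, adjusted p = 0.044). NaCl 1 was the higher in 14 of the 19, and the median against the mock mean was 1.2 in NaCl 1 and 0.54 in NaCl 2. Without NaCl 2 6 rose, without mock 2 1, and without NaCl 1 or mock 1 0. P1BS, GNATATNC, the motif known to bind the phosphate starvation factor *PHR1*, stood in 6 of the 19 windows, against 8.85% for the genes that rose, 5.64% for those that fell and 5.51% of all. The *PS2* window, on the minus strand at chr1:27466349-27466598, is shown with it in capitals.
PS2: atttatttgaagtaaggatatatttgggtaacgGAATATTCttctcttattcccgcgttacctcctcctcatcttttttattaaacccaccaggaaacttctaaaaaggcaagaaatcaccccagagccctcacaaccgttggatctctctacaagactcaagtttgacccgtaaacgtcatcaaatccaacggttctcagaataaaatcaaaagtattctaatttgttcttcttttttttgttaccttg

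Of 15 sulfur genes 14 had a difference above 0, 8 of them with both NaCl libraries above both mock libraries (beside 23.5% of all genes), and the median was 0.61. Of the 15, 2 rose, beside 1.17% of all genes. The glutathione-degrading cyclotransferase gene *GGCT2;1* had 50.4 and 75.9 in NaCl against 15.1 and 18.5 in mock (1.83, adjusted p = 0.042). *SULTR4;2*, which exports sulfate from the vacuole, had 291 and 249.9 against 97.6 and 132 (1.24, adjusted p = 0.028). Without NaCl 2 1 sulfur gene rose, and without NaCl 1, mock 1 or mock 2 0 did. Of 19 nitrate and nitrogen genes 1 rose, beside 1.17% of all genes. *NRT1.8* (chr4:11517353-11519805), which removes nitrate from the xylem sap, had 1024 and 235 in NaCl against 12.1 and 19.4 in mock (4.91 ± 0.76, adjusted p = 0.017). Both NaCl libraries were more than 10-fold above mock. The high-affinity transporter gene *NRT2.1* had 696 and 5046 against 428 and 794 (1.68, adjusted p = 0.31). *NRT1.8* did not pass without NaCl 1 (3.86, adjusted p = 0.077), mock 1 or mock 2, and without NaCl 1 another gene of the list rose. Without NaCl 2 3 genes of the list fell. Among 19 iron genes 0 passed, beside 2.81% of all genes in either direction, and replicates of both treatments were far apart. *IMA3*, an iron-deficiency peptide gene, had 378 and 1281 in NaCl against 44.3 and 949 in mock, and *FER1*, a ferritin gene, had 2203 and 795 against 6552 and 1101.

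Few genes on the lists for growth passed, as over all genes tested, of which 2.81% passed in either direction. That share stands beside each count of 0 in this paragraph, and on lists so short 0 lies near it. Of 21 genes for cell division and DNA replication 0 passed, and their differences lay between -0.37 and 0.66. Of 16 alpha-expansins, which loosen cell walls, 1 rose and 1 fell, beside 1.17% and 1.65% of all genes. *EXPA10* (chr1:9259432-9261313) had 3225 and 1941 in NaCl against 368 and 599 in mock (2.41 ± 0.33, adjusted p = 0.01), and *EXPA8* (chr2:16948791-16950705) had 184 and 114 against 1058 and 1400.5 (-3.06 ± 0.25, adjusted p = 0.0017). In both NaCl libraries the 2 genes stood apart from mock, in opposite directions. *EXPA10* did not pass without NaCl 1 or mock 1, and without NaCl 2 1 further expansin gene fell. Of 15 auxin and cytokinin response repressors 14 had a difference below 0, with a median of -0.50. Both NaCl libraries lay below both mock libraries in 11 of them, beside 23.6% of all genes, and 0 passed. The 13 root cell markers summed to 2729 and 3352 in NaCl, against 4549 and 5382 in mock, with 0 of 13 called and a median of -0.54. *COBL9*, required for root hair growth, had 118 and 134 against 232 and 259.8 (-0.96, adjusted p = 0.065). The part of tissue make-up in the gene results was not tested. Of 18 clock genes 0 passed, and *CCA1* had 118 and 169 against 48.3 and 67.5 (1.29, adjusted p = 0.075). Among 11 reference genes 0 passed, with *UBQ10* at 21057 and 20669 in NaCl against 17132 and 16059 in mock and *ACT2* at 4792 and 4829 against 7172 and 5988. In the lists for reactive oxygen enzymes (13 genes), wax and suberin (17), and heat shock factors and chaperones (9), 0 passed.

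**Figure D3:**
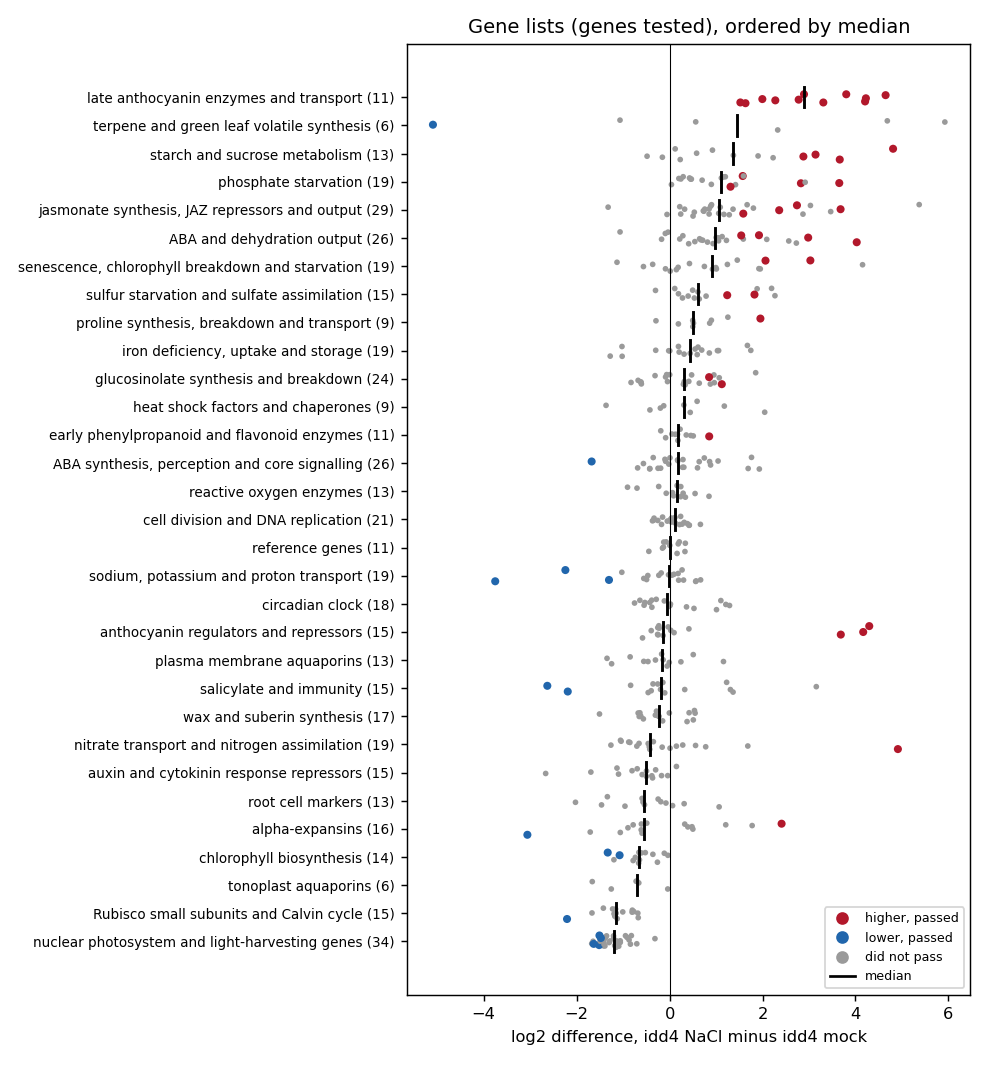
Differences between NaCl and mock in *idd4* (horizontal axis, log2) of the members of each gene list, 1 point per gene, with the median of each list as a black bar, genes that passed in red (higher) or blue (lower), and the number of genes tested in brackets. The 11 late anthocyanin genes all lie above 1.5 and all 34 photosystem genes lie below 0.

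The genes that rose most included several with almost no reads in mock. *NATA1*, an acetyltransferase known for making N-acetylornithine in jasmonate-treated leaves, had 4855 and 494 in NaCl against 7.04 and 0 in mock (9.09 ± 1.61, adjusted p = 0.027). *CSLA01* (chr4:9345150-9349258), of a family of mannan synthases, had 354 and 145 against 0 and 0.92 (7.36 ± 0.84, adjusted p = 0.006). The purple acid phosphatase gene *PAP14* had 129 and 34.5 against 0 and 0.92 (5.61, adjusted p = 0.04). In each of these NaCl 1 was the higher by more than 2-fold. The log2(value + 1) scale understates changes from so low a level. *UGT73C2*, a glycosyltransferase gene in a cluster of close copies, had 29.9 and 25.3 in NaCl and 0 in both mock libraries, at least 19.1-fold higher in NaCl when mock is set to 3 fragments over the group. AT3G25240, of a family of unknown function, had 34.6 and 14.6 against 0 and 0, at least 17.0-fold higher. The minimum mean level for testing required a high NaCl level of any gene at 0 in mock, and this largely sets these bounds.

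*GSTF6* (chr1:661088-662475), a stress-inducible glutathione S-transferase with a close copy next to it, had the smallest adjusted p among the genes that rose. It had 6210.0 and 7113 in NaCl against 319 and 293 in mock (4.44 ± 0.25, adjusted p = 0.00057), so the replicates nearly coincided within each treatment. AT3G28220, which encodes a TRAF-like family protein, had 2696 and 817 against 31.2 and 43.4 (5.29 ± 0.75, adjusted p = 0.012). The cellulose synthase-like gene *CSLG2* had 973 and 175 against 25.2 and 9.24 (4.66, adjusted p = 0.035). AT1G80130 encodes a tetratricopeptide repeat protein, and AT4G01985 and AT5G39520 have no known role. AT1G80130 had 746 and 1523 against 28.2 and 68.4 (4.57), AT4G01985 had 112 and 473 against 9.06 and 7.4 (4.65), and AT5G39520 had 242 and 66.7 against 7.04 and 3.70 (4.38). NaCl and mock did not overlap in any of them, which the choice of these genes required. Of the 15 largest rises by the rule, 5 passed without NaCl 1, 12 without NaCl 2, 4 without mock 1 and 4 without mock 2, with sizes of 3.43 to 10.74.

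The genes that fell most encoded proteins of several kinds. AT3G16670, of the pollen Ole e 1 family, had 1.57 and 33.0 in NaCl against 277 and 558 in mock (-5.40 ± 0.98, adjusted p = 0.03). *CRK4*, a cysteine-rich receptor-like kinase gene, had 0 and 6.13 against 65.4 and 148 (-5.22). The cytochrome P450 gene *CYP71B22* had 3.15 and 0.77 against 106 and 87.8 (-5.17), and *CYP76G1*, of another P450 family, had 1.57 and 0.77 against 115 and 18.5 (-4.48). *PCC1*, a small pathogen- and clock-responsive gene, had 1.57 and 1.53 against 106 and 59.2 (-4.97). In these 5 genes the NaCl libraries were under 10 scaled fragments, apart from AT3G16670 in NaCl 2. The plant defensin gene *PDF1.3*, which has close paralogues, was at 0 in both NaCl libraries, with 24.2 and 21.3 in mock. It was thus at least 14.7-fold lower with NaCl when NaCl is set to 3 fragments over the group. The limit of 10 required a high mock level of any gene at 0 with NaCl, and this largely sets the bound.

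*MEE3*, a small MYB-like protein gene, had the most even fall of these, with 11 and 6.90 in NaCl against 201 and 205 in mock (-4.39 ± 0.36, adjusted p = 0.0017). *EXT12*, an extensin of the cell wall, had 25.2 and 33.0 against 319 and 699 (-3.99), and *FLA6*, a fasciclin-like arabinogalactan protein, had 4.72 and 2.3 against 57.4 and 77.6 (-3.96). AT1G22690, of a gibberellin-regulated family, had 17.3 and 20.7 against 237 and 588 (-4.23). All 4 were lower in each NaCl library than in either mock library, which the choice of these genes required. *ACS4*, an enzyme of ethylene synthesis, had 1.57 and 0 against 29.2 and 25 (-4.12), AT5G02760, of the PP2C phosphatase family, had 3.15 and 8.43 against 127 and 94.3 (-4.14), and AT1G29600, of a zinc finger family, had 0 and 1.53 against 17.1 and 35.1 (-4.01). Of the 15 largest falls by the rule, 7 passed without NaCl 1, 13 without NaCl 2, 4 without mock 1 and 3 without mock 2, with sizes of 2.73 to 7.26.

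Of the 23 genes the study names that were tested, 1 rose and 2 fell, beside 1.17% and 1.65% of all genes. The median was 0.06. *HB7* rose, and *CHX17* and *SDD1* fell. *SDD1*, a protease that limits stomatal number, had 17.3 and 40.6 in NaCl against 92.6 and 222 in mock (-2.39 ± 0.51, adjusted p = 0.045). *SPCH*, which starts the stomatal lineage, had 18.9 and 46.0 against 53.3 and 72.1 (-1.04, adjusted p = 0.24). *MPK6*, the kinase the study links to *IDD4*, had 404 and 246 against 416 and 391 (-0.35, adjusted p = 0.50). *MYB15*, a factor of cold and defence responses, had 365 and 40.6 against 13.1 and 15.7 (3.01, adjusted p = 0.17), and *NAC019*, a stress NAC factor, had 560.3 and 33.7 against 53.3 and 9.24 (2.57, adjusted p = 0.38). In *MYB15* and *NAC019* *idd4* NaCl 1 stood above the other *idd4* libraries, and WT NaCl 1 was likewise above WT NaCl 2, with 159.5 against 28.7 for *MYB15* and 312 against 34.6 for *NAC019*. Without NaCl 2 *MYB15* passed (4.58, adjusted p = 0.042). Without NaCl 1, mock 1 or mock 2 0 of the 23 passed, and without NaCl 2 2 rose and 1 fell. The study chose these genes with data of its own in view. The hexamer AGACAA is close to the site of the maize relative ID1. The study gives it as the core of motifs found upstream of putative IDD4 targets. It stood in 21.7% of the windows of genes that rose, in 18.18% of those that fell and in 19.29% of all.

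The 2 NaCl libraries differed in more than depth. Of the 226 genes that rose 158 were higher in NaCl 1, by a median of 0.25, and of the 319 that fell 217 were higher in NaCl 2, where the median of NaCl 1 minus NaCl 2 was -0.23. Among the genes that rose, 40 lay more than 2-fold apart between the NaCl libraries, against 22 between the mock libraries, and among those that fell 31 and 10. The distance from the mock mean was greater in NaCl 1 for jasmonate (1.58 against 0.55 in NaCl 2), photosystem (-1.68 against -0.80) and senescence genes (1.09 against 0.18). For late anthocyanin (2.57 against 3.22) and sulfur genes (0.46 against 0.86) it was greater in NaCl 2. What separates the 2 libraries was not tested.

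**Figure D4:**
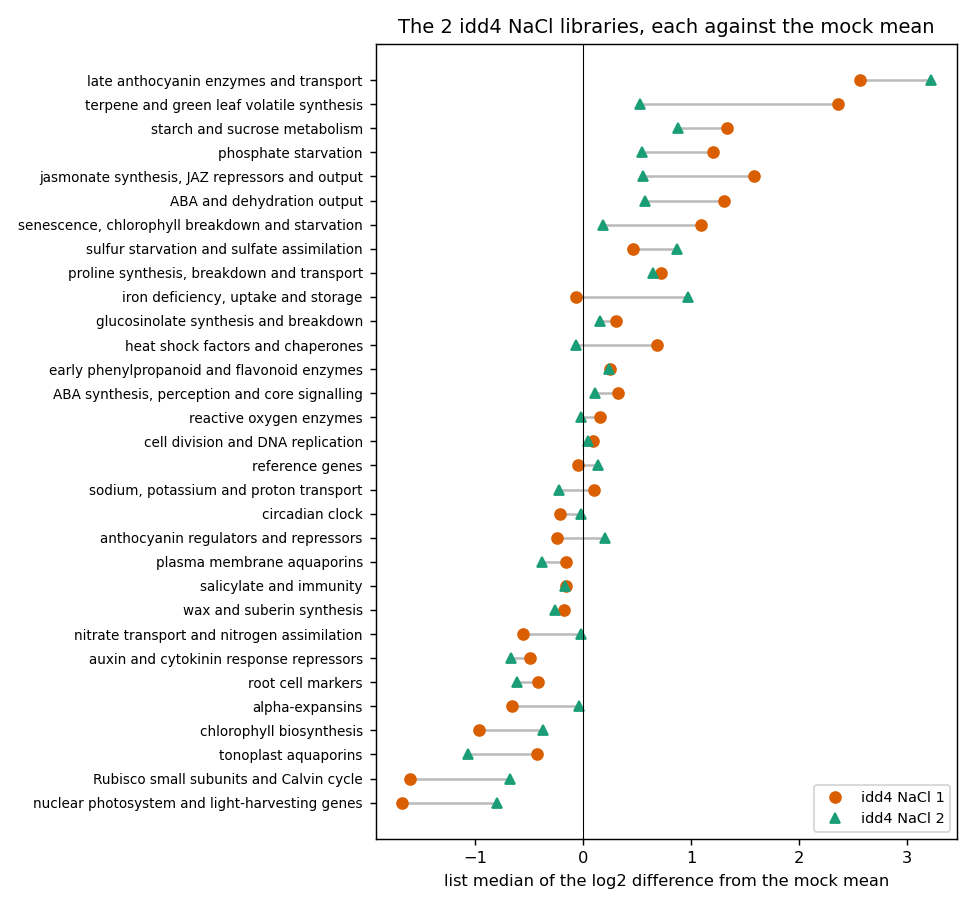
Median difference from the *idd4* mock mean (horizontal axis, log2) of each gene list in NaCl 1 (circles) and NaCl 2 (triangles), with a grey line between them. Jasmonate (1.58 and 0.55) and photosystem lists (-1.68 and -0.80) lie farther from 0 in NaCl 1, and late anthocyanin (2.57 and 3.22) in NaCl 2.

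The same genes were read in WT seedlings to see where the *idd4* response differed. In WT 230 genes rose (1.19%) and 232 fell (1.2%) between NaCl and mock. Of the 226 genes that rose in *idd4* 226 had the same sign in WT and 147 rose there too, or 65.0% of the *idd4* genes and 63.9% of the WT genes. Of the 319 that fell 318 had the same sign and 152 fell in WT, or 47.6% and 65.5%. Both contrasts use the same estimate of the spread for each gene, so the 2 sets of calls are not independent. The WT difference was the smaller in size in 136 of the 226 and in 258 of the 319, with medians of 1.81 and -1.44 in *idd4* and 1.64 and -1.17 in WT. As the genes were chosen in *idd4*, sizes there are favoured by the choice. The difference between the responses themselves passed for 0 genes (0%), with 175 (0.904%) at an unadjusted p under 0.05 and a smallest adjusted p of 0.999946 (limma). The edgeR fit on the fragments also gave 0, with 188 unadjusted, and DESeq2 0, with 95. No gene is therefore shown to respond differently in *idd4*.

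The exception in sign was *CIL*, of the CCT motif family, with 22.03 and 26.1 in *idd4* NaCl against 70.4 and 85.0 in *idd4* mock (-1.65), and 48.7 and 43.5 in WT NaCl against 35.01 and 50.3 in WT mock (0.13). The test of that difference had an unadjusted p of 0.0028 and did not pass. By list, the medians in *idd4* and in WT were 2.89 and 3.28 for late anthocyanin, 0.97 and 1.75 for ABA output, 1.06 and 0.90 for jasmonate, -1.20 and -0.91 for photosystem genes, 1.11 and 0.85 for phosphate starvation, and 0.44 and -0.50 for iron. The *idd4* iron median was -0.07 without NaCl 2. *KIN1* differed by 1.92 in *idd4* and 3.23 in WT, and *CCA1* by 1.29 in *idd4*, where it did not pass, and 2.95 in WT, where it did (adjusted p = 0.0049). Neither difference between the responses passed.

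**Figure D5:**
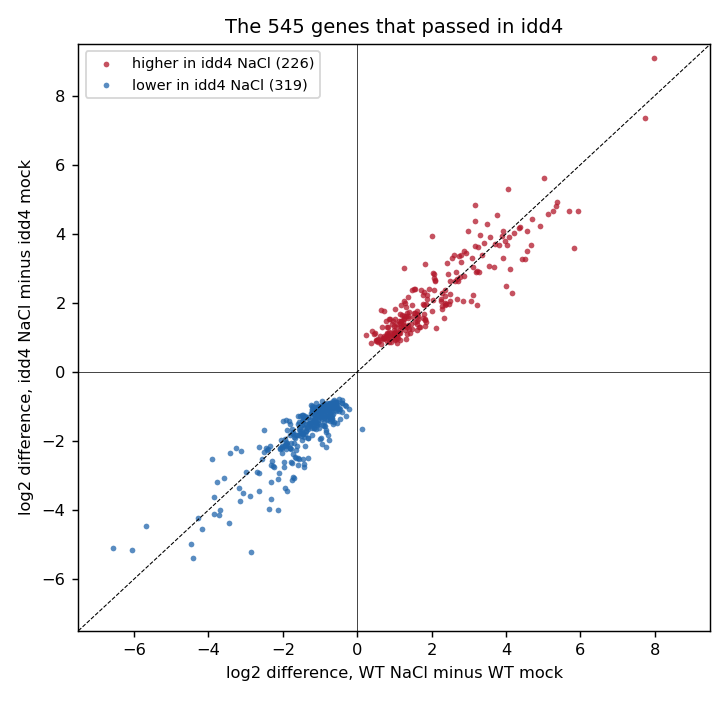
NaCl minus mock in *idd4* (vertical axis, log2) against the same difference in WT (horizontal axis, log2) for the 545 genes that passed in *idd4*, with a dashed line of equal values. All 226 that rose lie above 0 in WT and 318 of the 319 that fell lie below it.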

How the data were processed

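For the 8 libraries (2 per group), read quality was checked with FastQC by the authors, who used Trimmomatic 0.32 for trimming, TopHat for alignment to TAIR10, and Cufflinks and cuffdiff, per the study's methods and the submitters' processing notes. The table deposited by the authors gives a signal for each gene, namely fragment counts times 1 factor per library, with totals of 10516146 to 10564612. At least 99.886% of the values of each library lay within 0.05 of a whole multiple of its step, which ran from 0.775672 to 1.79383 and gave the fragments. The analysis had been designed for FPKM. How the authors treated reads of either strand or of near-identical genes is not stated. Precision is set by 2 libraries per group and, for low genes, by fragment counting.

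Values were scaled by median-of-ratios factors, and log2(value + 1) was fitted with limma 3.58.1 (R 4.3.3) with a variance trend, 1 mean per group and 8 libraries (4 residual and 4.82 prior degrees of freedom). Two-sided p-values were adjusted by Benjamini-Hochberg at 0.05. Fold changes on this scale understate changes of low genes. SE is that of limma. The script was tested on simulated data. Alternatives were other scalings, pseudocounts of 0.5 and 5, minimum means of 1, 50 and none, other variance settings, edgeR 4.0.16 and DESeq2 1.42.0 on the fragments, a replicate block, the 4 *idd4* libraries alone, and each library left out.

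Genes named are the 15 largest changes per direction, up to 5 called members per list and direction, and those the study names. Where no list member passed, the first 2 in list order were named. The 15 were drawn from genes that passed with no overlap between the NaCl and mock libraries. Others were named after their values were seen. Members, lists and tests were chosen with earlier results of these data known. Of the genes tested, 19259 matched the RefSeq TAIR10.1 annotation, used for positions and upstream windows, and 106 did not. Windows that overlap an annotated exon are not printed.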

Additional observations from a re-analysis of the deposited data

How the results depend on the processing

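Relative to 226 higher, 319 lower and 545 genes in all, the counts were 441 higher and 182 lower with no scaling, 101, 104 and 205 without the variance trend, 518, 693 and 1211 with DESeq2, and 84, 71 and 155 from the 4 *idd4* libraries alone. The other scalings, pseudocounts, minimum means, the robust fit and edgeR gave counts within 1.5 times. Leaving out 1 library gave 67 to 786 genes in all, 39 to 282 higher and 28 to 504 lower. The genes called kept their sign in every setting in which they were tested. With the replicate number as a block, 597 rose and 876 fell, or 1473 in all. Deviations of same-numbered libraries correlated at 0.293 between *idd4* NaCl and *idd4* mock. Over the pairs of groups they correlated at 0.0623 (WT mock with WT NaCl) to 0.487 (WT NaCl with *idd4* NaCl). Nothing in the sources says that the numbers pair the libraries. The cause of these shifts was not tested, beside the smaller number of libraries where some were left out. For the 74 named genes that passed, the call was lost 264 times and kept 328 times when 1 library was left out, and lost 118 times and kept 903 times under the other settings. Over the 42 that had not passed, a pass came up once among all fits without a library and 10 times among the other settings, counting each gene and setting. Values that changed sign belonged to genes that had not passed. With no scaling they were *PIP1;1* (0.10), *PIP1;2* (0.24), *CYCB1;2* (0.19), *CAT1* (0.0076), *CER3* (0.24) and *KUP1* (0.0045), with quantile normalization *PIP1;2* (0.34), and for *BHLH38* 0.36 with edgeR and 0.30 with DESeq2. Over the 8 fits without 1 library the difference ran from -0.43 to 0.15 for *PIP1;1*, -0.21 to 0.19 for *PIP1;2*, -0.15 to 0.045 for *CYCB1;2*, -1.76 to 1.16 for *BHLH38*, -0.17 to 0.15 for *CER3*, -0.64 to 0.043 for *IAA2*, -0.71 to 0.0055 for *MPK6*, -0.000154 to 0.056 for *NAC083*, -0.23 to 0.33 for *SOS3*, -1.14 to 0.62 for *WRKY33*, -0.20 to 0.84 for *MYB61*, -0.062 to 0.49 for *IDD15* and -0.055 to 0.26 for *RGA*. Depth limits genes near 10 scaled fragments, where 1 fragment is 0.775672 to 1.79383 before scaling, and most of all NaCl 1.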
